A study of Mus musculus with 12 samples.

Results

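The 10 genes described here are markers of adipose progenitors and of mural cells, the contractile cells around small vessels. They are Pdgfra, Pdgfrb, Dpp4, Pi16, Cd34, Ly6a, Dlk1, Icam1, Cd24a and Acta2, and they were found by symbol among the 23420 genes of the count table of the series. All 10 were present and passed the filter on low counts that left 15306 genes for testing. RNA was sequenced from whole inguinal white adipose tissue (iWAT) of 12 male C57BL/6 mice, each 10 weeks old, with 3 mice in each of 4 groups. All mice carried HIF2a loxP/loxP alleles. WT mice had no Cre, and mice labelled HIF2α AKO had Adipoq-Cre, whose promoter is active in adipocytes and not in the progenitors or mural cells that these genes mark. Mice of each genotype lived for 1 week at 30 °C (thermoneutrality, TN) or were exposed for 3 days to cold of 4 to 6 °C. The libraries held 22368316 to 35204631 counts on genes.

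Adipocytes arise from stromal progenitors that express the receptor PDGFRα. In inguinal fat, cells bearing DPP4 and PI16 lie in the interstitium around the depot and give rise to ICAM1-bearing preadipocytes, which are closer to becoming fat cells. CD34, Sca-1 (the product of Ly6a) and CD24 have been used to sort progenitors, DLK1 restrains the step from preadipocyte to adipocyte, and PDGFRβ and smooth muscle actin (the product of Acta2) mark pericytes and smooth muscle. Most of these proteins are also found on other cells. CD24 is abundant on B cells, and DPP4 and ICAM1 occur on leukocytes. In RNA of whole tissue, fewer cells of a type and less RNA per cell cannot be told apart.

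The targeted gene was not called between the genotypes at either temperature by edgeR. Epas1, which encodes HIF2α, was at 360 ± 76.8 CPM (read counts scaled by library size and TMM factor, mean ± SD, n = 3) in TN WT and 348 ± 53.8 in TN mice labelled HIF2α AKO. In cold it was at 627 ± 101 and 826 ± 139. There, all mice labelled HIF2α AKO (743.2 to 985.7 CPM) lay above all WT mice (562.0 to 742.8 CPM). The log2 difference in cold was 0.40 (unadjusted p = 0.0694, edgeR). Counts over the whole gene may not resolve the floxed part, which was not tested, and genotypes are given as labelled. Ucp1, the uncoupling protein of thermogenic adipocytes, was between 0.204 and 3.85 CPM in the 6 TN mice and between 2171 and 5897 CPM in the 6 cold mice. In 3 libraries, marker lists pointed to other tissue. The summed level of 7 epithelial genes was 264 CPM in TN WT mouse 3 against 3.58 to 11.5 CPM in the other 11 libraries. The sum of 7 skeletal muscle genes was 1356 CPM in TN HIF2α AKO mouse 2 and 1083 CPM in cold HIF2α AKO mouse 1, against 9.58 to 80.6 CPM in the remaining 10. Some of the results are also given without these libraries, and the others only with them.

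Each gene lay at a single locus of GRCm38, on chromosomes 1 (Cd34), 2 (Dpp4), 5 (Pdgfra), 9 (Icam1), 10 (Cd24a), 12 (Dlk1), 15 (Ly6a), 17 (Pi16), 18 (Pdgfrb) and 19 (Acta2). Because HIF2α binds DNA at a short core, ACGTG or GCGTG, the RefSeq promoter windows of GRCm38.p6, 250 bases before to 50 bases after the start, were searched on both strands. Windows were at hand for 7 of the 10 genes, all but Pdgfrb, Ly6a and Cd24a. The core was found in 2 of the 7, Dlk1 and Icam1, while 43.8% of 27025 promoter windows held it. The E-box CACGTG, which overlaps the HIF core, was found in 0 of the 7 windows, against 7.24% of all windows. For serum response factor, a regulator of smooth muscle actin, only the strict CArG box CCWWWWWWGG was searched, where W is A or T. It was found in 0 of the 7 windows, against 1.57% of all windows. CArG boxes that depart from this form were not searched, so their absence is not shown. A match is a string of letters and not a binding site. The stretches of 30 bases around each core are shown because they are the only matches to the factor that the study targeted, with the core in capitals.
Dlk1, chr12:109452586-109452615, strand +, from -237 to -208 relative to the start: ttggggtctgggcatACGTGttgctgcgag
Dlk1, chr12:109452757-109452786, strand +, from -66 to -37 relative to the start: gtttacaggcgggctGCGTGgaggggcagc
Icam1, chr9:21015690-21015719, strand +, from -250 to -221 relative to the start: accaggagGCGTGactcctggaggcccggg

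Per kilobase of exon, the genes spanned a wide range. The median over 12 libraries was 175 CPM per kb for Ly6a, the highest of the 10, and its lowest library, at 111, was above the highest library of every other member. Acta2 (31.8), Cd24a (28.02), Pi16 (27.5), Pdgfrb (26.8), Icam1 (21.2), Cd34 (16.2), Pdgfra (13.1) and Dpp4 (12.8) followed, in CPM per kb, and each of these overlapped its neighbours in the order across libraries. Dlk1 was the lowest at 0.283 CPM per kb, with 15 to 74 counts per library, so that its values carried the largest counting error. With the longest transcript as the length, 5 of the 10 genes kept their place. Reads of near-identical sequence can be assigned to another gene or to none. Of the 50-base windows in its longest transcript, Ly6a shared 10% with other genes of its family such as Ly6c1 and Ly6i, and its level is uncertain to that extent. Icam1 shared 18.6% with Gm47079, an antisense gene at its own locus that has no row in the count table. Acta2 shared 0.352%, and none of it with the muscle actin Acta1.

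**Figure D1:**
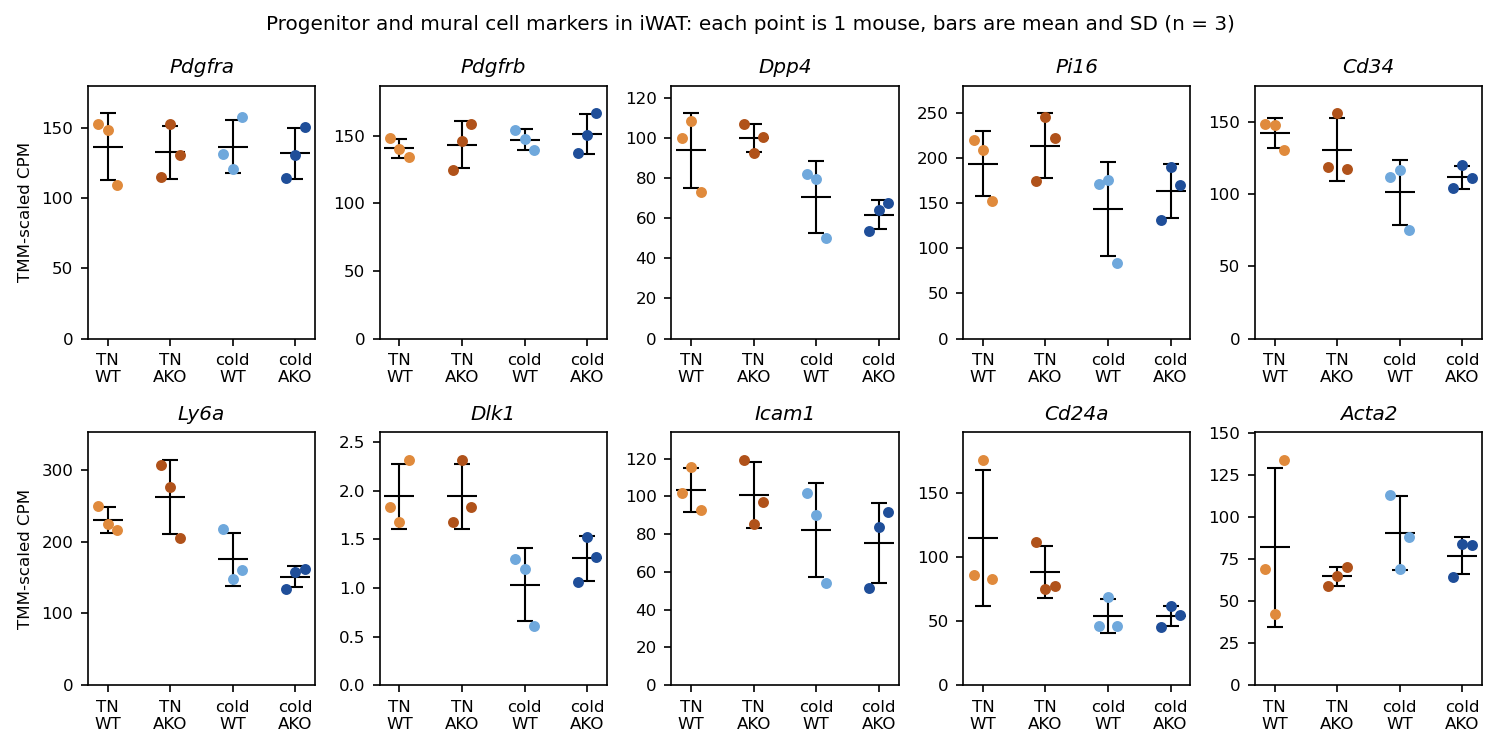
CPM after TMM scaling (vertical axis, linear from 0, scaled for each gene) of the 10 genes in the 4 groups of iWAT (horizontal axis). Points are mice, and bars are the mean and SD of 3 mice. Dlk1 and Cd24a are lower in all 6 cold mice than in all 6 TN mice, whereas Pdgfra stays between 109 and 157 CPM throughout.

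The first question was whether cold changed these genes. Over both genotypes, 5 of the 10 were lower in cold (Cd24a, Dlk1, Ly6a, Dpp4 and Cd34) and none was higher at an adjusted p under 0.05, by the quasi-likelihood test of edgeR, adjusted by Benjamini-Hochberg over all genes tested. Of all genes, 24% were called lower in cold and 24.8% higher. The median log2 fold change was -0.39 over the 10 genes and -0.05 over all genes tested. All cold libraries lay below all TN libraries for 2 of the 10, Dlk1 and Cd24a, while 8.53% of all genes showed this.

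The PDGF receptors did not pass the test. Pdgfra, the receptor that defines the stromal progenitor lineage, was at 152, 148 and 109 CPM in the 3 TN WT mice and at 115, 152 and 131 CPM in TN HIF2α AKO mice. Cold mice were at 132, 121 and 157 CPM in WT and at 114, 130.3 and 150.4 CPM in HIF2α AKO mice. The groups overlapped fully. Its log2 difference, cold minus TN, was -0.01 with a 95% interval from -0.26 to 0.25 (adjusted p = 0.972, edgeR). Pdgfrb, the receptor of pericytes and smooth muscle, lay between 124 and 159 CPM in TN and between 137 and 167 CPM in cold. Its difference was 0.07 with an interval from -0.10 to 0.24 (adjusted p = 0.455, edgeR). These were the narrowest intervals among the 10 genes. Of the 6 PDGF ligands and receptors, both members among them, 1 rose, the ligand Pdgfb of endothelial cells, from 36.4 ± 6.81 to 48.3 ± 5.31 CPM (mean ± SD, n = 6). Of all genes, 24.8% rose. Pdgfc (-0.37) and Pdgfa (-0.10), log2 differences, did not pass.

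Dpp4 and Pi16 mark interstitial progenitors. Dpp4, a cell surface dipeptidase, was at 100.1, 109 and 73.0 CPM in TN WT and at 107, 92.9 and 101 CPM in TN HIF2α AKO mice. Upon cold, values were 82.2, 79.9 and 50.1 CPM in WT and 53.8, 64.0 and 67.9 CPM in HIF2α AKO mice. Only TN WT mouse 3 fell into the range of the cold mice. Dpp4 fell by 0.55 on the log2 scale (SE 0.137, adjusted p = 0.00801, edgeR), a level in cold of 0.682 times that in TN. Pi16, a peptidase inhibitor of adventitial fibroblasts, was at 219, 209 and 153 CPM in TN WT, 174, 245 and 222 CPM in TN HIF2α AKO, 172, 176 and 83.8 CPM in cold WT and 132, 191 and 169.7 CPM in cold HIF2α AKO mice. Its values overlapped between the temperatures, with the lowest in cold WT mouse 3, and its difference of -0.41 had an interval from -0.82 to 0.01 (adjusted p = 0.0943, edgeR). Of all genes, 24% fell and 24.8% rose. Of 7 other genes of interstitial progenitors, 4 fell and none rose, with a median log2 difference of -0.30. With the 3 libraries that held other tissue left out together, 2 fell, where 19.7% of all genes did. Bmp7 was then not called (adjusted p = 0.0734, edgeR). Among the 4, Wnt2, a secreted ligand, went from 5.70 ± 0.439 to 3.76 ± 0.829 CPM, Cd55, an inhibitor of complement, from 151 ± 23.4 to 112 ± 18.3 CPM (mean ± SD, n = 6), and Bmp7 fell by 0.41 on the log2 scale. Of 5 genes of the CD142-bearing stromal cells that restrain adipogenesis, 3 fell, with Clec11a (-0.73) and Gdf10 (-0.44) among them, and 1 rose. That gene was F3, which encodes CD142 itself, at 22.9 ± 5.86 CPM in TN and 73.6 ± 26.6 CPM in cold (mean ± SD, n = 6).

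Cd34, Ly6a and Cd24a encode surface proteins by which progenitors have been sorted. Cd34, a sialomucin that endothelial cells also carry, was at 149, 148 and 131 CPM in TN WT and at 119, 156 and 117 CPM in TN HIF2α AKO mice. Cold-exposed mice were at 112, 117 and 75.5 CPM in WT and at 104, 120.3 and 112 CPM in HIF2α AKO mice. The temperatures overlapped by a narrow margin through the HIF2α AKO mice, and Cd34 fell by 0.36 on the log2 scale (SE 0.117, adjusted p = 0.0265, edgeR). The call was lost without TN WT mouse 1 (adjusted p = 0.0572), without TN HIF2α AKO mouse 2 (0.058) and without cold HIF2α AKO mouse 1 (0.0627), all by edgeR. An antisense gene, Gm16897, shares 148 exon bases with Cd34, and the strand setting of the counting is not given in the sources used here. Ly6a was at 250.5, 225 and 216 CPM in TN WT and at 307, 276 and 205 CPM in TN HIF2α AKO mice. The cold values were 218, 148 and 161 CPM in WT and 134, 157 and 162 CPM in HIF2α AKO mice. Cold WT mouse 1 was the only cold mouse within the TN range. Ly6a fell by 0.59 on the log2 scale (SE 0.123, adjusted p = 0.00325, edgeR). Cd24a, a glycoprotein of immature cells and B cells, was at 85.8, 176 and 83.1 CPM in TN WT and at 111, 75.5 and 77.6 CPM in TN HIF2α AKO mice. Upon cold, the levels were 46.1, 69.1 and 46.1 CPM in WT and 45.3, 61.4 and 55.0 CPM in HIF2α AKO mice. The temperatures did not overlap, and Cd24a had the largest difference of the 10 genes, -0.90 (SE 0.208, adjusted p = 0.00553, edgeR).

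Dlk1 and Icam1 mark preadipocytes. Dlk1, the membrane protein that restrains adipogenesis, was at 1.83, 1.68 and 2.32 CPM in TN WT and at 1.68, 2.32 and 1.84 CPM in TN HIF2α AKO mice. In cold the values were 1.298, 1.20 and 0.603 CPM in WT and 1.07, 1.53 and 1.32 CPM in HIF2α AKO mice. All cold mice lay below all TN mice, and Dlk1 fell by 0.74 on the log2 scale (SE 0.207, adjusted p = 0.0135, edgeR). With the 3 libraries that held other tissue left out together, its difference was -0.54 (adjusted p = 0.103, edgeR) and that of Cd34 was -0.29 (adjusted p = 0.098). Icam1, an adhesion molecule that also serves leukocyte traffic, was at 102, 116 and 93.0 CPM in TN WT, 119.6, 85.3 and 97.1 CPM in TN HIF2α AKO, 102, 90.4 and 54.2 CPM in cold WT and 51.5, 83.7 and 91.6 CPM in cold HIF2α AKO mice. Its temperatures overlapped, and the difference of -0.37 had an interval from -0.76 to 0.02 (adjusted p = 0.103, edgeR). Of 7 inhibitors of adipogenesis, Dlk1 included, 4 fell and none rose, among them the transcription factor Klf2, from 118 ± 15.9 to 86.1 ± 11.5 CPM (mean ± SD, n = 6), and Tgfb1, which fell by 0.41 on the log2 scale. Of all genes, 24% fell and 24.8% rose. Of 8 regulators that promote adipogenesis, 5 rose and 1 fell. Those that rose included Cebpb, from 26.5 ± 8.33 to 106 ± 27.5 CPM (mean ± SD, n = 6), Zfp423 (0.63) and Pparg (0.91), as log2 differences.

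Acta2, the actin of smooth muscle and pericytes, was at 69.0, 42.5 and 134 CPM in TN WT and at 58.8, 65.2 and 70.2 CPM in TN HIF2α AKO mice. In cold, mice were at 114, 69.5 and 88.5 CPM in WT and at 64.2, 84.0 and 83.3 CPM in HIF2α AKO mice. The temperatures overlapped, with the highest value in TN WT mouse 3, and the difference was 0.20 (interval -0.32 to 0.72, adjusted p = 0.501, edgeR). In that mouse, the library with the epithelial genes, the smooth muscle gene Cnn1 was at 14.2 CPM against 0.754 to 3.94 CPM in the other 11, whereas Myh11 (101 against 56.2 to 98.6 CPM) and Tagln (68.9 against 35.4 to 76.0 CPM) lay at or near the range of the others. Without it, Acta2 was higher in cold by 0.48 on the log2 scale (adjusted p = 0.0308, edgeR), and by 0.54 (adjusted p = 0.0406) with the 3 libraries that held other tissue left out together. The share of the epithelial cells in these values was not tested. Of 12 other mural genes, 5 rose and none fell, with a median log2 difference of 0.23, where 24.8% of all genes rose. Without TN WT mouse 3, 8 rose, where 4047 of all 15467 genes tested rose. With the 3 libraries that held other tissue left out together, 6 rose, where 3672 of all 15364 genes tested did. The genes that rose included the pericyte genes Higd1b, from 1.86 ± 0.312 to 3.67 ± 0.754 CPM, Kcnj8, from 29.3 ± 4.44 to 42.6 ± 3.22 CPM, and Cspg4, from 84.8 ± 45.5 to 173 ± 33.4 CPM (mean ± SD, n = 6). Of 4 factors through which smooth muscle actin is transcribed, 1 fell, Mkl1 (-0.40), near the 24% of all genes that fell. Srf (-0.12) and Myocd (0.46), as log2 differences, did not pass.

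**Figure D2:**
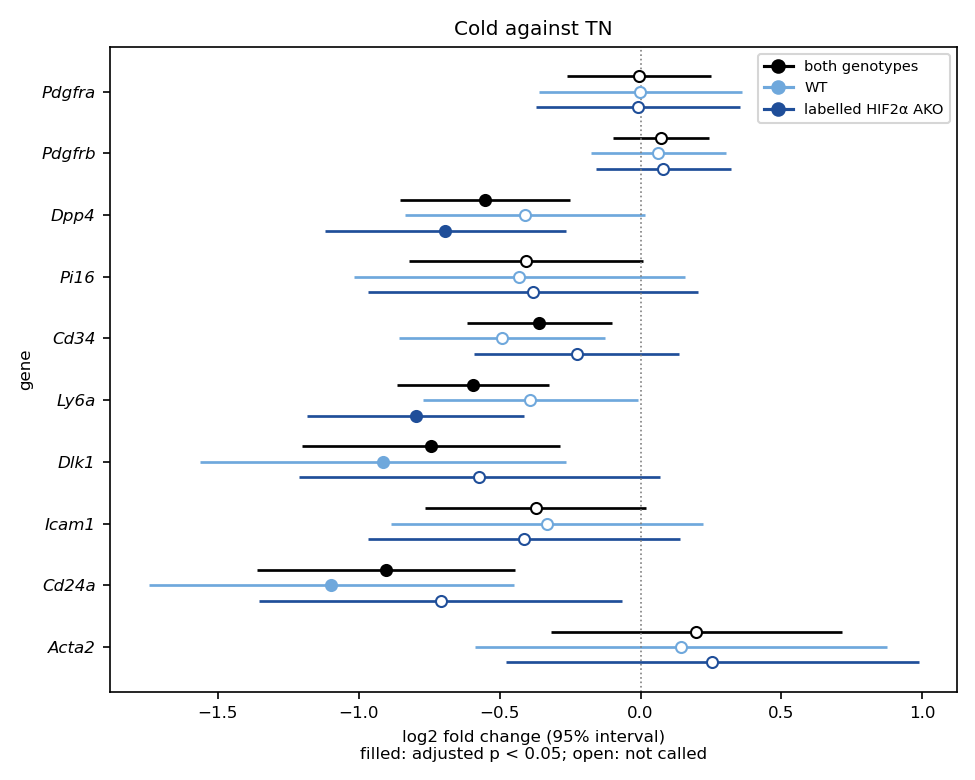
Log2 fold change of cold against TN (horizontal axis, 95% interval) for each gene (vertical axis), over both genotypes and within each. Filled points passed an adjusted p under 0.05 in edgeR; the 5 filled black points are Dpp4, Cd34, Ly6a, Dlk1 and Cd24a, all below 0, and the intervals of Pdgfra and Pdgfrb span 0.

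Within a genotype, with 3 mice against 3, fewer calls were made. In WT, 2 of the 10 fell, Cd24a by 1.10 (SE 0.295, adjusted p = 0.0247) and Dlk1 by 0.91 (SE 0.296, adjusted p = 0.0487) on the log2 scale by edgeR, where 5.68% of all genes fell and 15.6% rose. The groups did not overlap for 3 of the 10, Cd34, Dlk1 and Cd24a, against 19.3% of all genes lower in cold in this way. Cd24a was at -0.67 (adjusted p = 0.0853, edgeR) without TN WT mouse 2, its highest library, and was also not called without cold WT mouse 1 (0.0735) or cold WT mouse 3 (0.0978). Dlk1 lost its call in 11 of the 12 fits that left out a library, with adjusted p between 0.0504 and 0.159 (edgeR). In mice labelled HIF2α AKO, 2 fell, Ly6a by 0.80 (SE 0.175, adjusted p = 0.00894) and Dpp4 by 0.69 (SE 0.195, adjusted p = 0.0253) by edgeR, where 11.5% of all genes fell and 15.6% rose. The groups did not overlap for 4, Dpp4, Ly6a, Dlk1 and Cd24a, against 25.6% of all genes. Dpp4 was not called without TN HIF2α AKO mouse 1 (adjusted p = 0.0863) or 3 (0.0629) or cold HIF2α AKO mouse 1 (0.104) or 2 (0.058), by edgeR. With the 3 libraries that held other tissue left out together, neither Dpp4 (-0.65, adjusted p = 0.0767) nor Ly6a (-0.68, adjusted p = 0.0843) was called in this genotype by edgeR, in a fit with fewer mice in which the share of all genes called lower was 2.4%.

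The second question was whether the genotype changed these genes, at either temperature or in their response to cold. None of the 10 was called at TN, in cold or for the interaction of genotype and temperature by edgeR, and 0 of the 10 had an unadjusted p under 0.05 in any of the 3. DESeq2 and voom called 0 of the 10 as well. Over all genes tested, 0.00653% passed the adjusted limit at TN, 0.00653% in cold and 0% for the interaction, and 2.91%, 2.95% and 2.14% had an unadjusted p under 0.05. All 10 genes overlapped between the genotypes at both temperatures, while 7.69% of all genes at TN and 7.53% in cold did not. The smallest unadjusted p by edgeR was 0.213 at TN (Cd24a), 0.238 in cold (Ly6a) and 0.126 for the interaction (Ly6a).

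The intervals show what these 3 mice per group could resolve. For Pdgfrb, the log2 difference of HIF2α AKO minus WT was 0.02 at TN (interval -0.22 to 0.26) and 0.04 in cold (-0.20 to 0.28). For Dlk1 it was 0.00 at TN (-0.61 to 0.62) and 0.35 in cold (-0.32 to 1.01). The intervals of Acta2 were the widest, from -1.07 to 0.39 at TN and from -0.96 to 0.50 in cold. For Ly6a, the fall in cold was larger in HIF2α AKO mice by 0.41 on the log2 scale, with an interval from -0.95 to 0.13, and for Cd24a it was smaller by 0.39, with an interval from -0.52 to 1.296. That Ly6a and Dpp4 were called in one genotype and Cd24a and Dlk1 in the other therefore does not show that the genotypes responded differently.

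**Figure D3:**
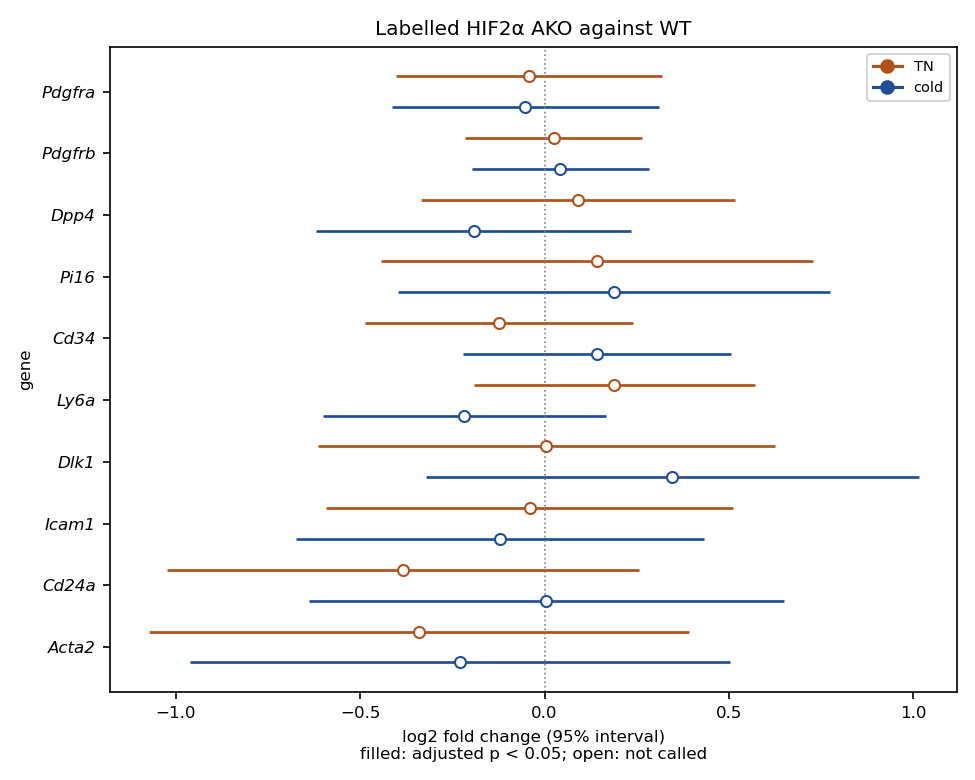
Log2 fold change of mice labelled HIF2α AKO against WT (horizontal axis, 95% interval) for each gene (vertical axis), at TN and in cold. All points are open, since none of the 10 genes passed the test, and every interval spans 0.

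Genes of other cell types were also compared between the temperatures, where 24% of all genes were called lower in cold and 24.8% higher. Of 8 leukocyte genes tested, 5 fell in cold and none rose, with a median log2 difference of -0.64. Ms4a1, a B cell marker, was at 161 ± 45.3 CPM in TN and 82.3 ± 19.5 CPM in cold (mean ± SD, n = 6), and Ptprc, the pan-leukocyte marker CD45, fell by 0.69 on the log2 scale. The summed level of the 8 genes ranged from 1563 to 2577 CPM in TN and from 1019 to 1741 CPM in cold. Of 8 cell cycle genes, 6 fell and none rose, Mcm2, Birc5 (-0.92) and Top2a (-0.99) among them, and their sum ranged from 194 to 500 CPM in TN, highest in TN WT mouse 2, and from 153 to 258 CPM in cold. Of 9 matrix genes of stromal cells, 6 fell, including Col1a1, from 1319 ± 229 to 617 ± 154 CPM (mean ± SD, n = 6), Col3a1 (-0.90) and Fbn1 (-0.71), and the sums, 6156 to 8477 CPM in TN and 3933 to 5654 CPM in cold, did not overlap. Of 8 endothelial genes, 2 rose, Emcn (0.53) and Kdr (0.36), near the share of all genes that rose. Of 8 adipocyte genes, 6 rose, among them Pnpla2 (1.76), Fabp4 (1.66) and Cidec (1.34). Of 7 epithelial genes, 1 fell, Epcam, by 1.88 on the log2 scale and by 1.01 without TN WT mouse 3, where it was at 35.0 CPM against 2.39 to 5.69 CPM in the other TN mice. Of 7 skeletal muscle genes none passed by edgeR with all libraries, and 6 were lower in cold with the 3 libraries that held other tissue left out together, where 1 epithelial gene was lower and 2 were higher.

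Because values in CPM are shares of a library, the genes were also set against Pdgfra in the same library. The log2 ratio to Pdgfra of Dpp4 went from -0.47 ± 0.217 in TN to -1.03 ± 0.379 in cold, that of Ly6a from 0.87 ± 0.304 to 0.28 ± 0.242 and that of Cd24a from -0.46 ± 0.493 to -1.33 ± 0.341 (mean ± SD, n = 6). The ratio of Pdgfrb went from 0.09 ± 0.172 to 0.16 ± 0.172. All 9 ratios overlapped between TN and cold, that of Dlk1 by a narrow margin (lowest TN -6.46, highest cold -6.41). Even so, 6 of the 9 had a two-sided exact permutation p under 0.05, not adjusted for the number of ratios, with cold lower in each. These were Dlk1 (difference -0.78, exact p = 0.00433), Cd24a (-0.86, 0.00649), Ly6a (-0.59, 0.00866), Dpp4 (-0.56, 0.013), Cd34 (-0.36, 0.013) and Pi16 (-0.44, 0.0238), with n = 6 at each temperature. Pdgfra itself differed by -0.01 on the log2 scale, so the ratios largely repeat the differences in CPM and are not a separate check on them. The share of all genes with such a p was not determined. In CPM, 24% of all genes were called lower in cold by edgeR.

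The genes also varied between mice of the same group, and this variation followed the leukocyte genes for some of them. After the group means were subtracted on the log2 scale, each gene was compared with the summed level of 4 lists over the 12 libraries, 40 relations in all, with two-sided exact permutation tests within groups whose smallest p is 0.000772. The lists for this comparison were picked after the values had been seen. Dpp4 followed the leukocyte sum with a Pearson r of 0.972 (exact permutation p = 0.000772, 0.0154 adjusted over the 40) and a Spearman rho of 0.958 (exact p = 0.000772, adjusted 0.0154). Without cold WT mouse 3 and TN WT mouse 3, the libraries farthest from the median, r was 0.952. Icam1 did so with r of 0.914 (exact permutation p = 0.000772, adjusted 0.0154) and rho of 0.825 (exact p = 0.000772, adjusted 0.0154), and r was 0.926 without the same 2 libraries. These 2 relations were the only ones of the 40 with an adjusted p under 0.05, while 8 had an unadjusted exact p under 0.05. Pi16, the other interstitial marker, had r of 0.718 with the leukocyte sum (exact permutation p = 0.0563, adjusted 0.244) and rho of 0.643 (exact p = 0.0988, adjusted 0.439), and r of 0.376 without those libraries. Cd24a had r of 0.898 with the cell cycle sum (exact permutation p = 0.0162, adjusted 0.162) and rho of 0.741 (exact p = 0.0324, adjusted 0.185), and r of 0.761 without TN WT mouse 2 and TN HIF2α AKO mouse 1. Acta2 had r of 0.794 with the sum of the other mural genes (exact permutation p = 0.0116, adjusted 0.155) and rho of 0.790 (exact p = 0.0108, adjusted 0.105), and r of 0.773 without TN HIF2α AKO mouse 1 and TN WT mouse 2. TN WT mouse 3, which had the highest Acta2 level and the epithelial genes, was kept in this check. The r of Acta2 without that mouse was not determined. For Pdgfra, r lay between 0.01 and 0.38 over the 4 lists. How much of the fall of Dpp4, Ly6a, Cd34, Cd24a and Dlk1 in cold went with the leukocyte and cell cycle genes was not tested.

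**Figure D4:**
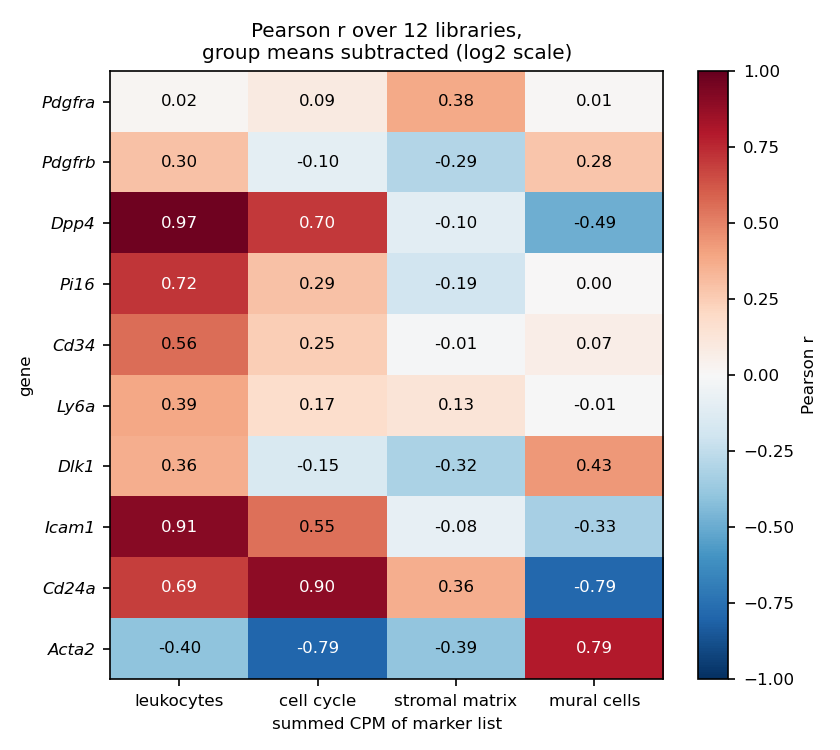
Pearson r (color, with its value in each cell) between each gene (rows) and the summed CPM of 4 marker lists (columns) over 12 libraries, on the log2 scale with group means subtracted. Dpp4 at 0.97 and Icam1 at 0.91 with the leukocyte sum are the strongest, whereas Pdgfra stays between 0.01 and 0.38.

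The genes with the most similar pattern over the 12 libraries were looked up among 13143 genes with a mean count of at least 50. Pearson r of log2 CPM was taken with the group means subtracted, so that differences between the groups do not contribute. Those of Dpp4 were Il6ra, a cytokine receptor subunit (r = 0.993), and Lyz2, the lysozyme of macrophages and neutrophils (0.988). Those of Cd24a were Mad2l1, of the spindle checkpoint (0.981), and Ppat, of purine synthesis (0.98), and those of Icam1 were Arid5a (0.989) and Sh3bgrl3 (0.985). Cd34 was most like Plau, the urokinase plasminogen activator (0.966), and Osr2 (0.955), Pi16 most like Abcb1b (0.964), Ly6a most like Doc2b (0.953), Acta2 most like Fzd5 (0.959), Dlk1 most like Kdelc1 (0.949), Pdgfrb most like Tcf20 (0.936), and Pdgfra most like Islr, a stromal gene (0.922). These values of r were picked as the highest of many over 12 libraries. How high such picked values come by chance was not tested.

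Among the markers themselves, 4 pairs were compared with the group means subtracted. Dpp4 and Pi16 had a Pearson r of 0.819 (exact permutation p = 0.0432, adjusted 0.173) and a Spearman rho of 0.692 (exact p = 0.0664, adjusted 0.266), and r was 0.54 without cold WT mouse 3 and TN WT mouse 3. Neither Dlk1 with Icam1 (r = 0.549, exact permutation p = 0.21), nor Pdgfrb with Acta2 (r = 0.132, exact p = 0.601), nor Pdgfra with Cd34 (r = 0.0658, exact p = 0.894) passed. No pair passed after adjustment over the 4. Within a temperature, r was taken without subtracting group means and permuted over all 6 mice, so that differences between the genotypes also enter. There, r of Dlk1 with Icam1 was -0.902 in the 6 TN mice (exact permutation p = 0.0236, adjusted 0.0944) and 0.722 in the 6 cold mice (exact p = 0.0708, adjusted 0.142). For Pdgfra with Cd34 it was 0.77 in TN (exact permutation p = 0.108, adjusted 0.216) and -0.574 in cold (exact p = 0.246, adjusted 0.328). Whether these differed between the temperatures was not tested.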

How the data were processed

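The authors trimmed reads with Trim Galore 0.4.4, aligned them to GRCm38 with STAR 2.6.1d and counted them per gene with HTSeq 0.13.5, and they deposited the read counts without normalization. Which annotation was counted, whether strand was used and how long the reads were is not given in the sources used here. Of the reads listed, 21.9 to 27.0% were in tallies of reads not assigned to a gene and were left out. Groups follow the labels of the samples. Counts of libraries of a group differed beyond sampling noise in every pair, so each was counted as a separate sample. Counts were filtered by filterByExpr (minimum count 10, minimum total 15), scaled by TMM and fitted with edgeR 4.0.16 in R 4.3.3 as a single factor of 4 groups, with Benjamini-Hochberg adjustment over the 15306 genes tested and a limit of 0.05. Alternatives used limma 3.58.1 and DESeq2 1.42.0. The processing was tested on simulated data. Gene lengths and positions came from GENCODE M21. Counts of 22368316 to 35204631 per library limit precision for low genes such as Dlk1. The p-values measure the spread between mice of a group.

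The members and lists were chosen with earlier results of these data known. All 10 members were named, and of each list up to 3 genes with the smallest p over both genotypes. A gene that met this rule is not reported here. Cnn1, Myh11, Tagln, the comparison with summed lists, and the fits of the lists without TN WT mouse 3 and of all genes without 3 libraries were added after the values were seen.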

Additional observations from a re-analysis of the deposited data

Results flagged for a closer look

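In 4 of 20 sets of 6 mice (10 genes at 2 temperatures), a library stood apart from the rest by Dixon's test, where chance gives about 1 in 20. Cd34 was at 75.5 CPM in cold WT mouse 3, and the nearest cold mouse was at 104 CPM. Ly6a was at 218 CPM in cold WT mouse 1, and the nearest cold mouse was at 162 CPM. Cd24a was at 176 CPM in TN WT mouse 2, and the nearest TN mouse was at 111 CPM. Acta2 was at 134 CPM in TN WT mouse 3, and the nearest TN mouse was at 70.2 CPM.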

How the results depend on the processing

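Over both genotypes, Dpp4, Ly6a and Cd24a were called lower in all 18 alternatives run, Dlk1 in 17 and Cd34 in 14. Between 4 and 6 of the 10 genes were called when a library was left out. In those fits, 2626 to 3726 of all genes were called lower, against 3669 with all libraries. In WT, the count of 2 became 1 with DESeq2 on the 6 libraries of the contrast and 0 to 2 with a library left out (0 without TN WT mouse 2 or cold WT mouse 3), and it was 3 with RLE size factors, DESeq2 on all libraries or voom. There Cd34 was called in 8 of 19 alternatives, Dlk1 in 4 and Cd24a in 16. In HIF2α AKO the count became 1 to 3 with a library left out, 3 with DESeq2 on the 6 libraries, and 0 with the 3 libraries that held other tissue left out together, an alternative chosen after seeing the data in which the genes called lower among all genes also went from 1757 to 368. The counts of all genes called lower moved with the setting, from 870 in WT to 157 without cold WT mouse 3 and 1720 with DESeq2 on all libraries, and from 1757 in HIF2α AKO to 314 without cold HIF2α AKO mouse 1 and 2926 with voom. Pi16 was called over both genotypes by voom alone (adjusted p = 0.037). Genotype and interaction called 0 of the 10 in every alternative run, and no called direction reversed. Relative to Pdgfra, 0 genes had all cold libraries below all TN libraries instead of 2, while 6 of 9 ratios had an unadjusted exact p under 0.05, and with the longest transcript 5 of 10 kept their place by level. Mice with the same number did not in general deviate together (5 of 18 pairs with a Pearson r above 0.1, range -0.514 to 0.519). Between TN WT and cold WT, r was 0.0211 for number 1, 0.519 for number 2 and 0.432 for number 3. With the replicate block, the counts of members called stayed at 5, 2, 2, 0, 0 and 0, although in WT Cd34 was gained (adjusted p = 0.0349, edgeR) and Dlk1 lost (0.0745). The causes of these changes were not tested, and 3 mice per group limit what could be called.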
